A study of Homo sapiens with 3 samples.

Results

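The genes described here carry the transforming growth factor beta (TGF-beta) signal from the cell surface to the nucleus, or hold it back. The ligand gene is TGFB1 and the receptor genes are TGFBR1, TGFBR2 and TGFBR3. The SMAD genes are SMAD2, SMAD3, SMAD4 and SMAD7, and the repressor genes are SKI and SKIL. All 10 genes were taken by name and found among the 33616 genes measured. Each was read through its brightest probe set among those annotated with exactly 1 symbol. RNA came from MDA-MB-231, a human triple-negative breast cancer cell line, 48 hours after transfection with a control siRNA (siControl) or with siTMPO-AS1 #1 or siTMPO-AS1 #2, which target the long non-coding RNA TMPO-AS1. Each of the 3 conditions had 1 Affymetrix array, so every array came from transfected cells and no siRNA had a replicate array. The labels do not say if separate cultures were used, so p-values below reflect the spread among these samples alone, which may be technical, and that spread includes any difference between the siRNAs.

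TGF-beta is secreted in a latent form and, once freed, brings the type II receptor (TGFBR2) together with the type I receptor (TGFBR1), which then phosphorylates SMAD2 and SMAD3. These join SMAD4, enter the nucleus and switch target genes on or off, while SMAD7, SKI and SKIL hold the pathway back. SMAD7 and SKIL are themselves known targets of the pathway and act as its negative feedback. In breast cancer cells the pathway is known for slowing growth at early stages and for favouring invasion at later ones.

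Values are log2 signals as deposited, and a log2 ratio is an siRNA array's signal less the control array's. Both ratios of a gene share the single control array. TMPO-AS1, the targeted transcript, had log2 signals of 4.83 with siControl, 4.37 with siTMPO-AS1 #1 and 4.28 with siTMPO-AS1 #2, near the brightness filter of 4.42 used for testing. Its log2 ratios of -0.46 and -0.55 were below control and both short of 1.5-fold. Array medians ranged from 3.73 to 3.75. Over the 16808 genes tested the log2 ratios of siTMPO-AS1 #1 and #2 had medians of 0.02 and 0.09 and SDs of 0.80 and 0.59. All 6 markers expected in this line passed the filter, and VIM, a mesenchymal marker, had log2 signals from 16.28 to 16.52. At least 1.5-fold below control were AXL (log2 ratio -1.27) and MSN (-1.03) with siTMPO-AS1 #1 and CAV1 (-1.39) with siTMPO-AS1 #2. Of 6 luminal markers expected to be low, 3 passed the filter, and the estrogen receptor gene ESR1, with 3.34 to 3.61, did not. ERBB2 had 7.72 with siControl, 8.97 with siTMPO-AS1 #1 and 7.54 with siTMPO-AS1 #2, GATA3 had 5.25, 6.66 and 5.61, and EPCAM had 10.92, 11.26 and 13.22. ERBB2 and GATA3 were thus highest on the siTMPO-AS1 #1 array, where most of the 10 genes were lowest, and EPCAM on the siTMPO-AS1 #2 array. Of the fibroblast markers 2 of 5 measured and of the immune markers 2 of 5 measured passed the filter, among them the macrophage marker CD68 with 11.14, 12.32 and 10.79, while the pan-leukocyte gene PTPRC had 4.06 to 4.64. The fibroblast matrix gene LUM had 5.53, 6.66 and 6.15 and the pericyte and fibroblast receptor gene PDGFRB had 4.78, 4.50 and 4.15, and the part of any of these markers in the results was not tested.

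The 2 signalling receptors were lower with both siRNAs, and most of the remaining genes were lower with siTMPO-AS1 #1 than with siTMPO-AS1 #2. With siTMPO-AS1 #1, 7 of the 10 genes were at least 1.5-fold below control, where 18.8% of all genes tested were, and 1 was at least 1.5-fold above, where 16.6% were. With siTMPO-AS1 #2, 3 of the 10 were at least 1.5-fold below control, where 10.4% of all genes tested were, and 1 was above, where 16.1% were. TGFBR1 and TGFBR2 were past 1.5-fold below control with both siRNAs (4.07% of all genes tested), and SKI was past it above control with both (5.42%), although SKI had a second probe set that lay below control. At 2-fold, 5 of the 10 were lower with siTMPO-AS1 #1 (9.94% of all genes tested) and 0 higher (5.49%), and 2 were lower with siTMPO-AS1 #2 (3.83%) and 0 higher (4.6%). TGFBR1 was the 1 gene past 2-fold below control with both (1.15%), and 0 were past it above control with both (1.07%). The 10 genes had median log2 ratios of -1.08 (siTMPO-AS1 #1) and -0.26 (siTMPO-AS1 #2). Apart from SKI and SMAD7, they were brighter in control than most genes tested, and shares among genes of like brightness were not compared. The 10 were chosen with earlier results of these data known, so these counts and medians are descriptive only. In bulk RNA, fewer cells with a transcript and less of it per cell cannot be told apart.

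**Figure D1:**
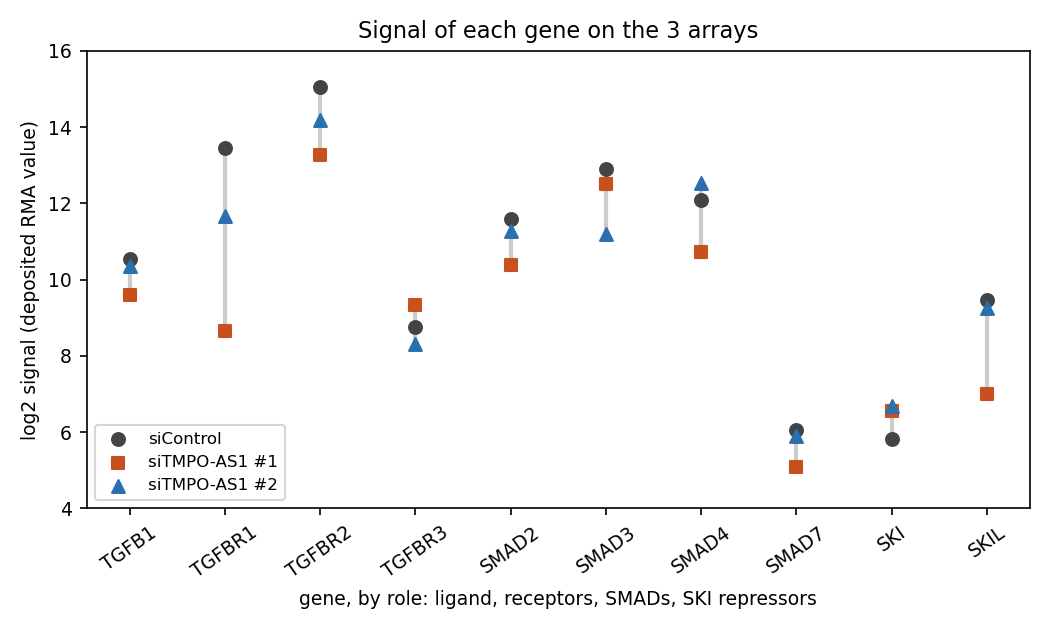
Log2 signal (vertical axis) of each of the 10 genes (horizontal axis) on the siControl (circle), siTMPO-AS1 #1 (square) and siTMPO-AS1 #2 (triangle) arrays, with a grey line from the lowest to the highest of the 3. The square is the lowest point for 7 genes and the longest line is that of TGFBR1, from 13.46 down to 8.65; heights of different genes come from different probes and are not comparable.

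Upstream sequences of TGFBR1 and TGFBR2, the pair lower with both siRNAs, and of SMAD7 and SKIL, the feedback genes lower with siTMPO-AS1 #1, are shown with their matches to the DNA letters that SMAD proteins are known to bind. Each is the 250 bases before the first start that RefSeq lists (GRCh38.p14), 5′ to 3′ on the strand of the gene, with the SMAD box CAGAC or its reverse complement GTCTG in capitals. The windows are chr9:99104863-99105112 (plus strand) for TGFBR1, chr3:30606106-30606355 (plus strand) for TGFBR2, chr18:48950966-48951215 (minus strand) for SMAD7 and chr3:170357465-170357714 (plus strand) for SKIL.
TGFBR1: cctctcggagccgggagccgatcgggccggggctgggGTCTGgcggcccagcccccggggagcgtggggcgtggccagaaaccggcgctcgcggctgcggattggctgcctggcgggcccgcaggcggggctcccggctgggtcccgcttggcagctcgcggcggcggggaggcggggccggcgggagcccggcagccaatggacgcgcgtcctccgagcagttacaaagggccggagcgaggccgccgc
TGFBR2: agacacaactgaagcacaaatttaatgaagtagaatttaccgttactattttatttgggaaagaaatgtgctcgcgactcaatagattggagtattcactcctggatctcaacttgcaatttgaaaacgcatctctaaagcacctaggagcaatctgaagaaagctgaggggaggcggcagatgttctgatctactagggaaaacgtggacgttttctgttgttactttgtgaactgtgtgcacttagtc
SMAD7: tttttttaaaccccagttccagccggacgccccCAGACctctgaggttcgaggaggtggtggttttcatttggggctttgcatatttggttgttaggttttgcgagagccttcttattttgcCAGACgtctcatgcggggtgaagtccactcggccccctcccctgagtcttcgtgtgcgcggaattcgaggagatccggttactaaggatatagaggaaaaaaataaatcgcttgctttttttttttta
SKIL: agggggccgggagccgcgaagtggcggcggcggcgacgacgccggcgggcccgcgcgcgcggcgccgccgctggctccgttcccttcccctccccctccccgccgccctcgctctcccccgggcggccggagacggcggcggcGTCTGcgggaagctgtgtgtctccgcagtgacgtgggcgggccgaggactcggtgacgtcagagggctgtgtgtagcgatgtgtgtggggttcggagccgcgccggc

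A SMAD box occurred once upstream of TGFBR1, starting 213 bases before the start, and once upstream of SKIL, 107 bases before it. SMAD7 had 2, at 217 and 128 bases before its start, and TGFBR2 had 0. Of the 10 genes 9 had an upstream sequence available. A SMAD box was in 3 of the 9, a share not above the 37.8% of 27305 promoters of the same length, 1 per gene. The windows not shown held 0, among them those of TGFB1, SMAD2 and SMAD4, which were also at least 1.5-fold lower with siTMPO-AS1 #1. The longer palindrome GTCTAGAC was in 0 of the 9 and in 0.176% of all promoters. The GC box GGGCGG (or CCGCCC), a site of the factor SP1, was in 6 of the 9 and in 42.3% of all promoters. It occurred 6 times upstream of TGFB1, 4 times upstream of SMAD3 and 3 times each upstream of SMAD2 and SKIL, and 0 times upstream of TGFBR1, TGFBR2 and SMAD7. G and C made up 79.6% of the TGFBR1 window and 40.8% of the TGFBR2 window, against a median of 58% over all promoters. The pair lower with both siRNAs thus differed in base composition. In the 6 windows with a GC box, G and C made up from 68.4% (SMAD4) to 80.8% (SMAD3). The 42.3% of all promoters with a GC box is not matched for base composition, so the 2 shares are not like for like. Listed starts numbered 8 for TGFBR1, 2 for TGFBR2, 3 for SMAD7 and 1 for SKIL, and the start in use in these cells was not measured. Only the window before the first listed start of each gene was searched, so sites near other starts would be missed. These matches describe the letters of these windows and not binding.

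TGFB1, the ligand gene, had log2 signals of 10.54 with siControl, 9.58 with siTMPO-AS1 #1 and 10.36 with siTMPO-AS1 #2. The siTMPO-AS1 #1 array was the low one, and the other two lay close together. The log2 ratios were -0.96 and -0.18, or 1.94-fold and 1.14-fold below control.

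TGFBR1, the type I receptor kinase that phosphorylates SMAD2 and SMAD3, had log2 signals of 13.46 with siControl, 8.65 with siTMPO-AS1 #1 and 11.66 with siTMPO-AS1 #2. Control was highest and siTMPO-AS1 #1 lowest, with wide gaps between all 3 arrays. The log2 ratios were -4.81 and -1.80, which stood 28.1-fold and 3.49-fold below control. By log2 ratio TGFBR1 was the 7th lowest of 16808 genes with siTMPO-AS1 #1 and the 114th lowest with siTMPO-AS1 #2, and by the mean of both it was the 2nd lowest. Its log2 ratio was thus among the lowest of the genes tested with both siRNAs. Its signal on the siTMPO-AS1 #1 array lay far below that on the siTMPO-AS1 #2 array (log2 difference -3.01).

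TGFBR2, the type II receptor that binds the ligand first, had 15.06 with siControl, 13.27 with siTMPO-AS1 #1 and 14.18 with siTMPO-AS1 #2. The order of the arrays was that of TGFBR1, with smaller gaps. The log2 ratios were -1.78 and -0.87, or 3.44-fold and 1.83-fold below control, at ranks 585 and 864 from the lowest. TGFBR3 encodes betaglycan, a co-receptor that presents ligand to TGFBR2, and had 8.75, 9.33 and 8.32 in the same order of arrays. It lay above control with siTMPO-AS1 #1 and below it with siTMPO-AS1 #2. Its log2 ratios of 0.58 and -0.43 were both short of 1.5-fold, the first by little (1.49-fold).

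SMAD2, which the type I receptor phosphorylates, had log2 signals of 11.60 with siControl, 10.39 with siTMPO-AS1 #1 and 11.28 with siTMPO-AS1 #2. The low array was siTMPO-AS1 #1, with log2 ratios of -1.21 and -0.32. SMAD3, phosphorylated by the same receptor, had 12.89, 12.50 and 11.20. Here the low array was siTMPO-AS1 #2, with log2 ratios of -0.39 and -1.69. With that siRNA SMAD3 had the 146th lowest ratio of all genes tested. The pair of receptor-activated SMAD genes was therefore lower by 2.31-fold (SMAD2) and 1.31-fold (SMAD3) with siTMPO-AS1 #1, and by 1.25-fold and 3.23-fold with siTMPO-AS1 #2.

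SMAD4, the partner that both need, had 12.09 with siControl, 10.73 with siTMPO-AS1 #1 and 12.53 with siTMPO-AS1 #2. It lay on opposite sides of control, 2.56-fold below with siTMPO-AS1 #1 and 1.35-fold above with siTMPO-AS1 #2 (log2 ratios -1.35 and 0.44). SMAD7, which blocks the receptors and brings ubiquitin ligases to them, had 6.06, 5.10 and 5.91. As for TGFB1, the siTMPO-AS1 #1 array was low and the others were close, with log2 ratios of -0.96 and -0.15. A second, dimmer probe set, also with the symbol but no gene number, had 5.47, 4.47 and 5.91, below control with siTMPO-AS1 #1 and above it with siTMPO-AS1 #2 (log2 ratio 0.44). Both probe sets of SMAD7 were thus lower with siTMPO-AS1 #1, and they lay on opposite sides of control with siTMPO-AS1 #2.

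SKI, a proto-oncoprotein that binds SMADs and recruits co-repressors, had log2 signals of 5.81 with siControl, 6.56 with siTMPO-AS1 #1 and 6.68 with siTMPO-AS1 #2. Both siRNA arrays were above control and close to each other, with log2 ratios of 0.75 and 0.87 (1.68-fold and 1.83-fold). A second probe set, to which the annotation gives the symbol SKI but no gene number, had 3.78, 3.20 and 3.41, under the brightness filter on every array. Its log2 ratios were -0.58 and -0.37, in the opposite direction, so the direction of SKI depends on the probe set. SKIL, also called SnoN, is a relative of SKI and a feedback repressor. It had 9.47, 6.99 and 9.26, so that siTMPO-AS1 #1 was far below the other two. The log2 ratios were -2.48 and -0.20, or 5.57-fold and 1.15-fold below control. The 2 repressor genes thus lay on opposite sides of control with siTMPO-AS1 #1 by their brighter probe sets.

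**Figure D2:**
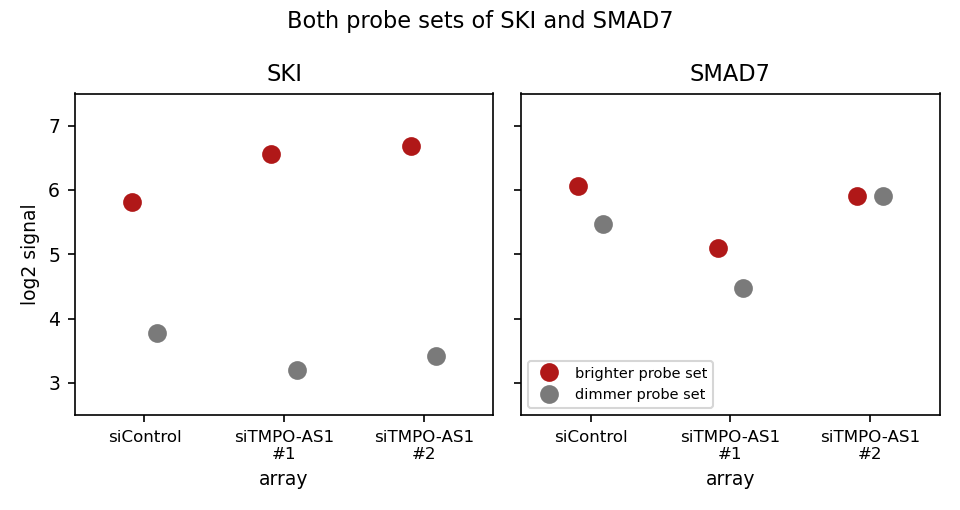
Log2 signal (vertical axis) on the 3 arrays (horizontal axis) of the brighter and the dimmer probe set of SKI (left) and SMAD7 (right); each point is 1 array. The probe sets of SKI lay further apart with both siRNAs than in control, and those of SMAD7 were both low with siTMPO-AS1 #1 and close to 5.91 with siTMPO-AS1 #2.

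Comparing the siRNA arrays directly leaves the control array out. Of the 10 genes, 7 were at least 1.5-fold lower with siTMPO-AS1 #1 than with siTMPO-AS1 #2, where 22.7% of all genes tested were, and 2 were at least 1.5-fold higher, where 14.9% were. The widest gaps below were those of TGFBR1 (-3.01), SKIL (-2.27) and SMAD4 (-1.79), as log2 differences between the siRNA arrays. TGFB1 (-0.77), SMAD7 (-0.81), SMAD2 (-0.89) and TGFBR2 (-0.91) had smaller ones of similar size. SMAD3 (1.30) and TGFBR3 (1.01) were the genes higher with siTMPO-AS1 #1. SKI differed by -0.12, the smallest gap of the 10. Among all genes tested the median of this difference was -0.07 and its SD was 0.87. With 1 array per siRNA these differences have no test.

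**Figure D3:**
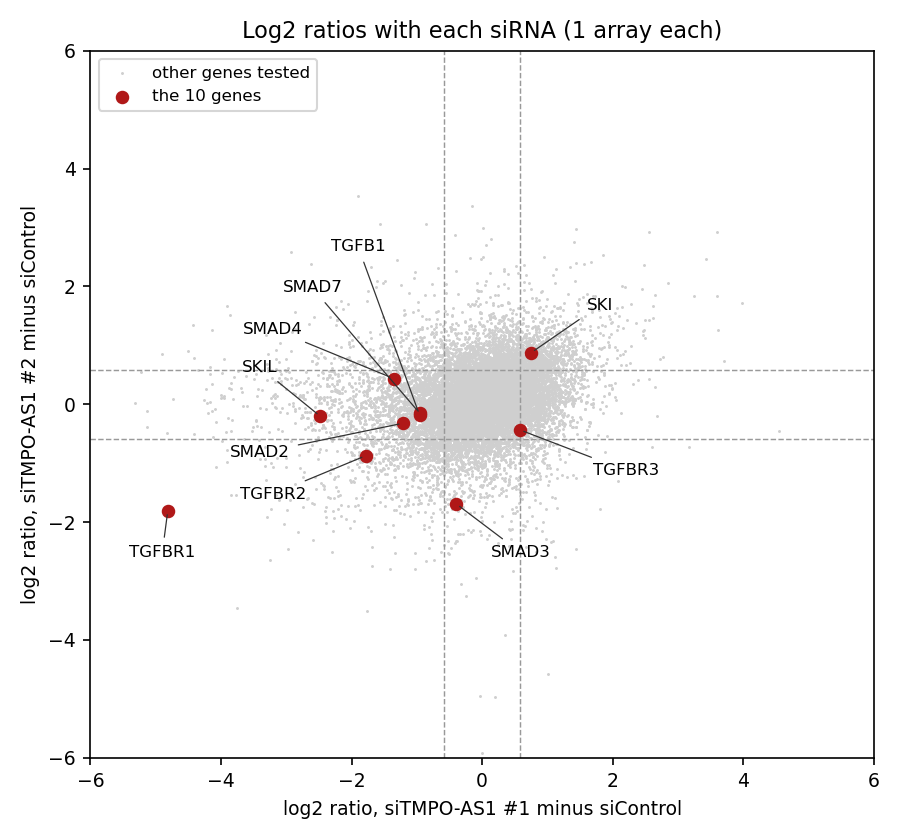
Log2 ratio to control with siTMPO-AS1 #1 (horizontal axis) against that with siTMPO-AS1 #2 (vertical axis) for the 16808 genes tested (grey) and the 10 genes (red, named); dashed lines mark 1.5-fold. Both axes share the control array. TGFBR1 stands apart at -4.81 and -1.80, TGFBR2 is below both lower lines, and SKI, by its brighter probe set, is above both upper lines.

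The siRNA arrays were also fitted together against the control with limma. The spread of each gene came from the difference between the siRNAs, drawn towards a value pooled over all genes tested. That pooled value was an SD of 0.41 and weighed more (3.28 degrees of freedom) than the gene's own spread (1 residual degree of freedom). The mean log2 ratio of TGFBR1 was -3.31 (SE 1.33), that of TGFBR2 was -1.33 (SE 0.58) and that of SKIL was -1.34 (SE 1.05). SMAD3 had a mean of -1.04 (SE 0.70), SMAD2 -0.77 (SE 0.57), TGFB1 -0.57 (SE 0.54), SMAD7 -0.55 (SE 0.55) and SMAD4 -0.46 (SE 0.87). SKI had 0.81 (SE 0.44) by its brighter probe set and TGFBR3 had 0.07 (SE 0.61). limma called 0 of the 10 genes after Benjamini-Hochberg adjustment over all genes tested, each with an adjusted p of 1.00, and it called 0% of the 16808. Unadjusted p-values from limma under 0.05 numbered 0 among the 10 and 261 among all genes tested (1.55%), and the lowest of the 10 were 0.064 for TGFBR1 and 0.079 for TGFBR2. With 1 residual degree of freedom this fit has little power, and missing its threshold does not show that the genes did not differ.

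Other ligands and the proteins that free TGF-beta from its latent form had medians at or above control. Of 14 listed genes 11 were tested, with medians of 0.04 and 0.32. With siTMPO-AS1 #1, 2 were at least 1.5-fold lower and 2 higher, and with siTMPO-AS1 #2, 0 were lower and 3 higher. The shares of all genes tested, which are the background for this and the following groups, were 18.8% lower and 16.6% higher with siTMPO-AS1 #1 and 10.4% lower and 16.1% higher with siTMPO-AS1 #2, so the counts with siTMPO-AS1 #1 were near the background. ITGAV, the integrin alpha-v chain that helps to release active TGF-beta, had log2 signals of 12.11, 8.66 and 12.26 (log2 ratios -3.45 and 0.15). THBS1, thrombospondin 1, another activator, had 15.49, 13.79 and 16.28 (-1.70 and 0.80). Both were thus low with siTMPO-AS1 #1 and above control with siTMPO-AS1 #2. The activin subunit genes INHBA (0.42 and 0.87) and INHBB (0.39 and 0.86) lay above control, as did TGFB3, another TGF-beta ligand (0.61 and 0.32), and ITGB8, a partner chain of alpha-v (0.55 and 0.05), all given as log2 ratios.

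Other receptors of the TGF-beta and activin branch had medians on either side of control. Of 10 listed receptor and co-receptor genes 7 were tested, with median log2 ratios of 0.11 and -0.12. None was at least 1.5-fold lower with siTMPO-AS1 #1 and 2 were higher, and with siTMPO-AS1 #2, 1 was lower and 1 higher. ACVR1B, the type I receptor for activin that also signals through SMAD2 and SMAD3, had log2 signals of 4.96 with siControl, 6.31 with siTMPO-AS1 #1 and 6.11 with siTMPO-AS1 #2. Both siRNA arrays were above control (log2 ratios 1.35 and 1.15; limma mean 1.25, adjusted p = 1.00, unadjusted p = 0.044). The activin type II receptor ACVR2B had log2 ratios of 1.39 and -0.01, and ACVR2A had 0.10 and -0.31. The co-receptor genes NRP1 (-0.32 and -0.69) and ENG (-0.33 and -0.44) lay below control, and the decoy receptor gene BAMBI (0.42 and 0.47) above it.

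Among SMAD partners and co-repressors 12 of 17 listed genes were tested, with median log2 ratios of -0.22 and -0.11. With siTMPO-AS1 #1, 3 were at least 1.5-fold lower and 3 higher, and with siTMPO-AS1 #2, 3 were lower and 0 higher. CREBBP, an acetyltransferase that SMADs use as a co-activator, had log2 signals of 14.03, 12.35 and 11.61. Both siRNA arrays were well below control, siTMPO-AS1 #2 further (log2 ratios -1.68 and -2.41; limma mean -2.05, adjusted p = 1.00, unadjusted p = 0.016). SP1, a transcription factor that works with SMADs at GC boxes, had 13.63, 12.49 and 12.94 (-1.13 and -0.69). The co-repressor TGIF1 had log2 ratios of -1.75 and -0.55, whereas its relative TGIF2 had 1.42 and 0.07. HDAC1, a histone deacetylase in SKI and TGIF complexes, went opposite ways (1.40 and -1.19), and the scaffold gene SIN3A had -0.28 and -0.41.

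Ubiquitin ligases and deubiquitinases, which set the stability of receptors and SMADs, were tested for 11 of 12 listed genes, with median log2 ratios of -0.01 and 0.34. With siTMPO-AS1 #1, 2 were at least 1.5-fold lower and 3 higher, and with siTMPO-AS1 #2, 3 were lower and 2 higher. SMURF2, a ligase that SMAD7 brings to the receptors, had log2 signals of 16.58, 15.92 and 15.93. Its siRNA arrays were nearly equal and below control (log2 ratios -0.67 and -0.65). USP11, a deubiquitinase of TGF-beta receptors, had 10.75, 11.73 and 12.03, above control with both siRNAs (0.98 and 1.29). USP4, which also acts on TGFBR1, had log2 ratios of 0.79 and 0.57. RNF111 (Arkadia), the ligase that marks SKI, SKIL and SMAD7 for degradation, had 0.13 and 0.34. WWP1 (0.85 and -0.88) and the SMAD4 deubiquitinase gene USP9X (-0.86 and 0.59) went opposite ways.

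Of the kinases and adaptors that carry TGF-beta signals beside SMADs, 7 of 11 listed genes were tested, with median log2 ratios of -0.52 and 0.05. With siTMPO-AS1 #1, 3 were at least 1.5-fold lower and 1 higher, and with siTMPO-AS1 #2, 0 were lower and 1 higher. The adaptor gene SHC1 had log2 ratios of -1.26 and 1.06, TAB2, an adaptor of the kinase TAK1, had 1.35 and -0.28, the ligase gene TRAF6 had -0.95 and -0.21, and the GTPase gene RHOA had 0.14 and 0.47.

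Genes known to respond to TGF-beta were tested for 17 of 28 listed, with median log2 ratios of -0.24 and 0.28. With siTMPO-AS1 #1, 5 were at least 1.5-fold lower and 0 higher (18.8% and 16.6% of all genes tested), and with siTMPO-AS1 #2, 3 were lower and 8 higher (10.4% and 16.1%). PMEPA1, a target that sequesters SMAD2 and SMAD3 and acts as feedback, had log2 signals of 9.92 with siControl, 7.21 with siTMPO-AS1 #1 and 9.85 with siTMPO-AS1 #2. As for the feedback gene SKIL, siTMPO-AS1 #1 was far below the other two (log2 ratios -2.71 and -0.07). TGFBI, a secreted matrix protein, had 10.61, 8.12 and 9.85, below control with both siRNAs (-2.49 and -0.76). CCN2, a matricellular growth factor, had 10.17, 7.30 and 11.74, on opposite sides of control (-2.87 and 1.56). The actin-binding gene TAGLN had log2 ratios of 0.36 and 0.99, the transcription factor gene KLF10 had -0.24 and -0.32, and the cytokine gene LIF had -0.30 and -0.71. Direct comparison of the siRNA arrays put 10 of the 17 at least 1.5-fold lower with siTMPO-AS1 #1 and 2 higher, beside 22.7% and 14.9% of all genes tested.

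**Figure D4:**
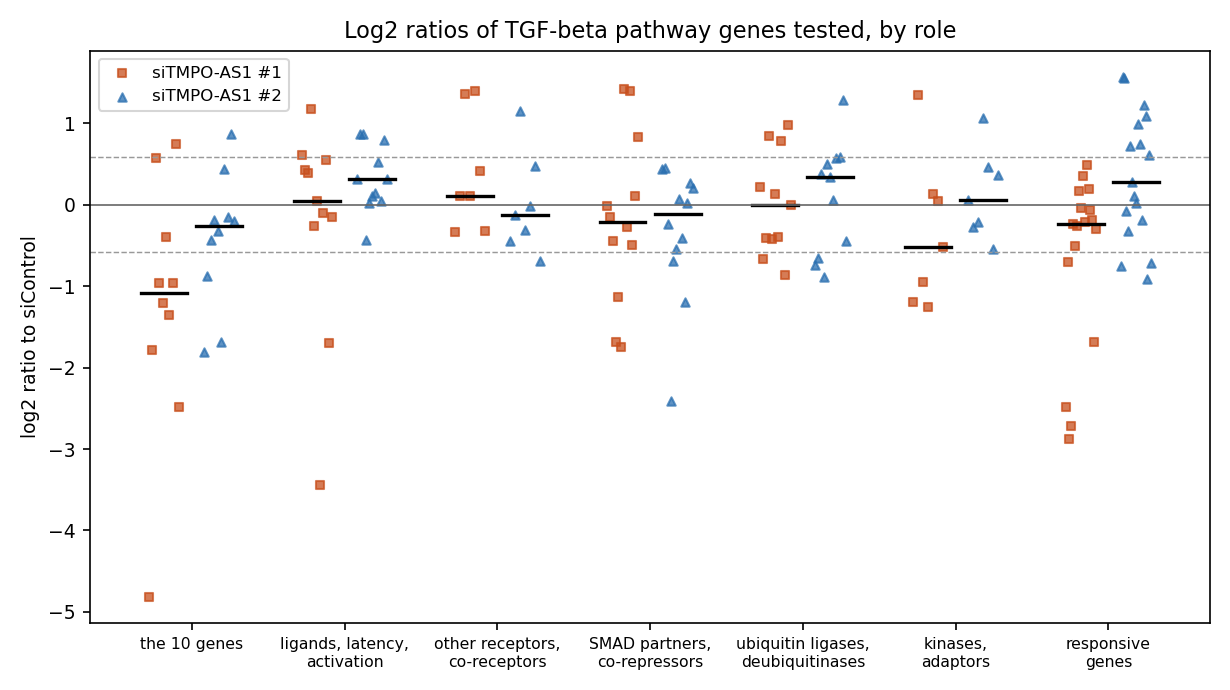
Log2 ratio to control (vertical axis) of each tested gene in the 7 groups of the pathway (horizontal axis), with siTMPO-AS1 #1 (squares) and siTMPO-AS1 #2 (triangles); black bars are group medians and dashed lines mark 1.5-fold. The 10 genes have medians of -1.08 and -0.26, and the other receptors have 0.11 and -0.12.

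Across 10846 protein-coding genes tested, the genes nearest to a member in the plane of both log2 ratios were listed for the 3 members past 1.5-fold in 1 direction with both siRNAs. Each position rests on 3 arrays, and the distance is Euclidean on the log2 scale. Nearest to TGFBR1 were MANEA (-3.84 and -1.54, distance 1.01), NEMP1 (-3.77 and -1.54, distance 1.08) and CBX1 (-3.91 and -0.98, distance 1.22). No other protein-coding gene tested thus lay within 1 log2 unit of TGFBR1. TGFBR2 had close neighbours in DCLRE1A (-1.76 and -0.83), CRIM1 (-1.73 and -0.90) and ABITRAM (-1.75 and -0.92), at distances from 0.045 to 0.062. SKI, by its brighter probe set, lay nearest to COQ10B (0.75 and 0.87), PRPF31 (0.75 and 0.87) and MYSM1 (0.74 and 0.86), within 0.016.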

How the data were processed

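The authors deposited log2 signals for each probe set on each array, which the submitters' processing notes credit to RMA and Affymetrix Expression Console. Their versions, annotation and genome build were not given in the sources used here. On all 3 arrays 1144 of 138745 probe sets (0.825%) exceeded 16, the log2 limit of a 16-bit scan, so folds are those of the deposited scale. Arrays have no read depth, and their number limits the precision.

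Probe sets were named through the supplied platform annotation: 36176 had 1 symbol, 1119 several and 101450 none. The brightest probe set by mean stood for a gene. Genes with a mean at or above the median of gene-level means (4.42) were tested, which left 16808 of 33616, and all 10 members passed. Gene types came from RefSeq (GRCh38.p14).

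limma 3.58.1 (R 4.3.3; lmFit, eBayes, Benjamini-Hochberg, two-sided, threshold 0.05) compared both siRNA arrays with the control, with 1 residual degree of freedom, the lone control being assumed to vary like them. It was tested on simulated data in which all arrays varied alike, so that assumption was not checked. Ratios of single arrays had no test and were read against 1.5-fold. From each pathway list the text names every tested gene past 1.5-fold in 1 direction with both siRNAs, up to 4 moving 1 way the most with both, and the 2 differing most between siRNAs. The members and lists were chosen with earlier results of these data known. Alternatives were the mean of probe sets, median centring, quantile normalization, a floor, other filters, an intensity trend, a 2-fold threshold and leaving out each siRNA array.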

Additional observations from a re-analysis of the deposited data

How the results depend on the processing

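limma called 0 genes in every one of the settings tried: no filter, a stricter filter, the mean of probe sets, median centring, quantile normalization, a floor on dim values and an intensity trend. Genes with an unadjusted p from limma under 0.05 numbered 88 of 8404 tested (stricter filter) to 787 of 33616 tested (no filter). The mean log2 ratios of the 10 genes kept their direction in all 68 values from these settings, each with an adjusted p of 1.00 in limma. Most of these values could not change, since the filters, the floor and the intensity trend left the ratios as they were. Median centring moved every ratio by the same -0.018. The mean of probe sets could alter only SKI and SMAD7, which did not pass the stricter filter. With a 2-fold threshold 1 gene was lower with both siRNAs (TGFBR1), 0 were higher with both, and 0 were higher with either siRNA. With the mean of probe sets 0 genes were 1.5-fold higher with both siRNAs, 0 with siTMPO-AS1 #1 and 0 with siTMPO-AS1 #2, because SKI then had 0.08 and 0.25. In that setting SMAD7 had 0.14 with siTMPO-AS1 #2 against -0.15. With quantile normalization 2 genes were higher with siTMPO-AS1 #1, since TGFBR3 reached 0.60.

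Without siTMPO-AS1 #1 or #2, the genes at least 1.5-fold lower on the remaining array numbered 3 to 7, and those higher 1. With 1 array left the log2 ratios of SMAD4 ranged from -1.35 to 0.44 and those of TGFBR3 from -0.43 to 0.58, so the direction of either gene turns on the siRNA. limma could not be run on 1 array against 1, which leaves no residual degree of freedom. No paired analysis was possible because the control has 1 array and its label carries no number. Signals near the filter, such as those of SKI and SMAD7, limit how far small ratios can be read.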

Other observations

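Among pathway genes too dim to be tested, LRRC32, which tethers latent TGF-beta to the cell surface, had log2 signals of 3.49, 4.48 and 4.26 (log2 ratios 0.99 and 0.77), and ACVR1C, a type I receptor for activin and nodal, had 2.83, 3.55 and 4.47 (0.72 and 1.64). Both lay above control with both siRNAs. ID3, an inhibitor of differentiation factors, had log2 ratios of -0.36 and 1.35. Its relative ID1, which was tested, had 6.17, 4.49 and 6.79 (-1.69 and 0.62), past 1.5-fold in opposite directions, while ID3 was short of 1.5-fold with siTMPO-AS1 #1. Both are named outside the naming rule, after their values were seen.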
